A study of Homo sapiens with 60 samples.

Results

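The SLC39 family (also called ZIP) holds the zinc importers of human cells, and the 10 members described here are SLC39A3, SLC39A4, SLC39A6, SLC39A7, SLC39A8, SLC39A9, SLC39A10, SLC39A11, SLC39A13, and SLC39A14. They were taken by their gene names from a count table of 62703 genes, in which 14 carry an SLC39 name. All 10 passed the filter on low counts and were among the 12341 genes tested. The cells were 1321N1, an astrocytoma line, cultured in serum-containing medium and either left non-treated or exposed to 2.55 µM sodium metaarsenite (arsenic), 2.3 µM cadmium chloride (cadmium), or 20 µM mercury chloride (mercury), doses chosen to be equitoxic. RNA was collected at 5 times (1.5 h, 3 h, 6 h, 12 h, and 24 h), with 3 libraries for each of the 20 combinations of treatment and time and 60 libraries in all. The samples are labelled as technical triplicates of a single cell line, so the p-values measure the spread between these libraries, which may be technical.

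SLC39 proteins move zinc into the cytosol, either from outside the cell or from organelles, and several also carry iron, manganese, or cadmium. SLC30 proteins (ZnT) move zinc the opposite way, and metallothioneins bind it in the cytosol together with cadmium, mercury, and copper. Zinc activates the transcription factor MTF1, which binds metal response elements in the promoters of metallothionein genes and of the zinc exporter SLC30A1. The question here was which of the importers change at the RNA level when cells meet a toxic metal, and whether they do so with all 3 metals.

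Levels are given as CPM, that is, counts scaled to a common normalized library size. Since 3′ mRNA sequencing reads each transcript from its 3′ end, CPM values are not scaled by gene length. Setting them side by side between genes assumes that each gene's 3′ end is counted equally well, of which only same-strand overlap was checked. A CPM is a share of all counted RNA, so that a change in a gene and an opposite change in the rest of the RNA cannot be told apart. Library totals ranged from 2215276 to 4404609 counts, and the share of mitochondrial counts was 1.35% to 7.94%. The lowest shares were in the first cadmium library at 6 h (1.35%, against 5.08% and 5.83% in its replicates) and the second arsenic library at 3 h (1.91%, against 5.72% and 5.43%). Of 10 markers of astrocytes or glioma, VIM (mean 4410 CPM), CD44 (386 CPM), and SOX9 (77.1 CPM) were well detected, whereas AQP4 and ALDH1L1 had 0 counts in all 60 libraries and GFAP had 0 in 57. S100B had 0 in 59, and NES (3.46 CPM), SLC1A3 (1.03 CPM), and SLC1A2 (0.114 CPM) were low. Markers of oligodendrocytes, microglia, and endothelium were at or near 0 (at most 0.381 CPM on average). Of the neuronal markers, SYT1 had 11.4 CPM and MAP2 1.42 CPM, whereas RBFOX3, SNAP25, and STMN2 had at most 0.175 CPM. The third cadmium library at 24 h had the lowest mean correlation with its replicates of all libraries (0.959), and values without it are given beside the results at 24 h of cadmium that it moved.

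In non-treated cells the importers spanned a wide range of levels. SLC39A7, which releases zinc from the endoplasmic reticulum and Golgi apparatus, was the highest, with 117 ± 12.0 CPM (SD, n = 15), followed by SLC39A14, a cell surface importer of zinc, iron, manganese, and cadmium, with 74.7 ± 11.4 CPM (SD, n = 15). SLC39A6, a surface importer of the LIV-1 type, had 46.9 ± 5.41 CPM, and SLC39A9, found on the Golgi apparatus and at the cell surface, had 30.9 ± 6.17 CPM. Then came SLC39A13, which acts in the Golgi apparatus and intracellular vesicles and is mutated in a form of Ehlers-Danlos syndrome, with 25.2 ± 4.81 CPM, and SLC39A10, a surface importer that can pair with SLC39A6, with 19.9 ± 4.79 CPM. The lowest were SLC39A11 (14.8 ± 2.86 CPM), SLC39A3 (13.8 ± 2.96 CPM), SLC39A4 (7.79 ± 2.33 CPM), the importer of dietary zinc in the intestine, and SLC39A8 (5.21 ± 1.72 CPM), which also carries cadmium and manganese.

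Among neighbours in this order, the ranges of SLC39A7 and SLC39A14 alone did not overlap. SLC39A9 exceeded SLC39A13 in 11 of 15 libraries, and SLC39A11 exceeded SLC39A3 in 9 of 15, so that neither pair was separated beyond its spread. The other neighbours kept their order in 13 to 15 of 15 libraries. The 4 remaining family genes had almost no counts over all 60 libraries, with 10 for SLC39A1, 7 for SLC39A2, 2 for SLC39A5, and 1 for SLC39A12. For SLC39A1 this total cannot be read as a level, because 359 of the last 400 bases of its transcript lie on the same strand as a readthrough gene, and reads assignable to several genes were not counted. The last 400 bases of the 10 members share no base with another gene on the same strand.

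**Figure D1:**
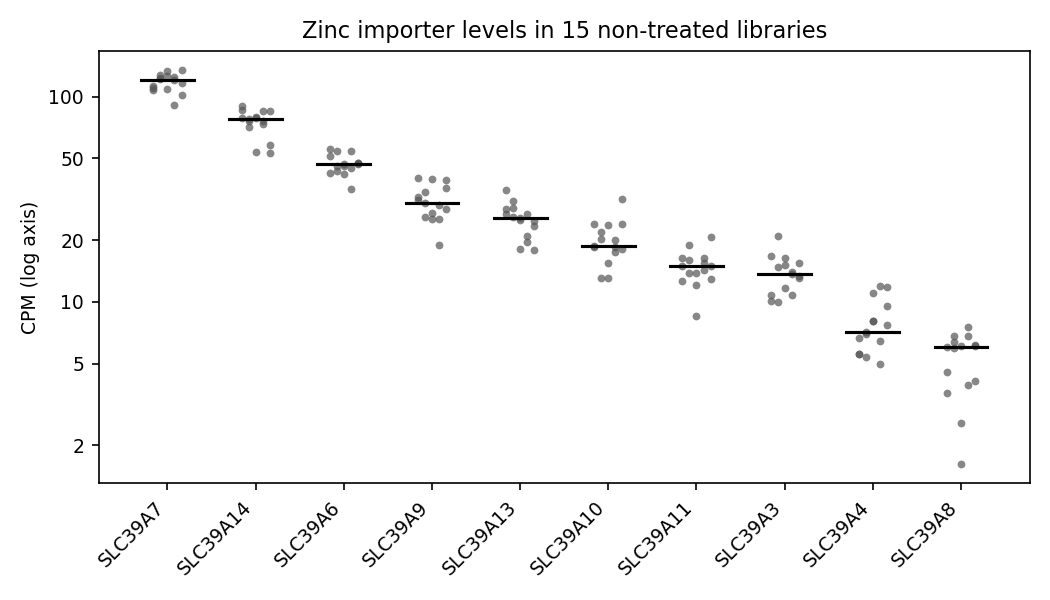
Levels of the 10 importers in non-treated cells, in CPM on a log axis. Each point is 1 of 15 non-treated libraries, spread from left to right by time, and each line is the median, which fell from 121 CPM for SLC39A7 to 6.05 CPM for SLC39A8.

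Treated libraries were set against the non-treated ones of their own time point by edgeR's quasi-likelihood test, with Benjamini-Hochberg adjustment over all genes tested within a comparison, and a gene was called at an adjusted p under 0.05. Of 150 tests of a member, 9 were called (6%), in 3 members, against 5.71% over all genes in the same comparisons, so the family as a whole was not called more often than other genes. SLC39A10 fell with cadmium and arsenic, SLC39A14 rose with all 3 metals, and SLC39A13 fell with mercury. In each of the 9 calls, the 3 treated libraries did not overlap the 3 non-treated libraries. This is no separate support, since the calls were made on these same libraries, and some differences without a call did not overlap either. The remaining 7 members had no call against non-treated cells.

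The calls came late, as did most calls over all genes, so the timing was not particular to the members. With arsenic, 0 of 10 members were called at 1.5 h (0.0729% of all genes called), 3 h (0.138%), 6 h (0.916%), or 12 h (4.11%), whereas 2 were called at 24 h (14.3%). With cadmium, 0 of 10 were called at 1.5 h (0% of all genes), 3 h (0.203%), and 6 h (2.05%), 2 at 12 h (8.18%), and 1 at 24 h (2.19%). With mercury, 0 of 10 were called at 1.5 h (0.567% of all genes) and 3 h (1.55%), 1 each at 6 h (7.48%) and 12 h (16%), and 2 at 24 h (27.8%). In the 9 comparisons without a member called by edgeR, 6 of 90 tests had an unadjusted p under 0.05, and DESeq2 called 1, SLC39A10 after 12 h of arsenic, and gave no adjusted p in 18. The median LFC (log2 fold change) of the 10 members was between -0.19 and 0.0965 in the 15 comparisons, against -0.0211 to 0.0133 over all genes tested.

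**Figure D2:**
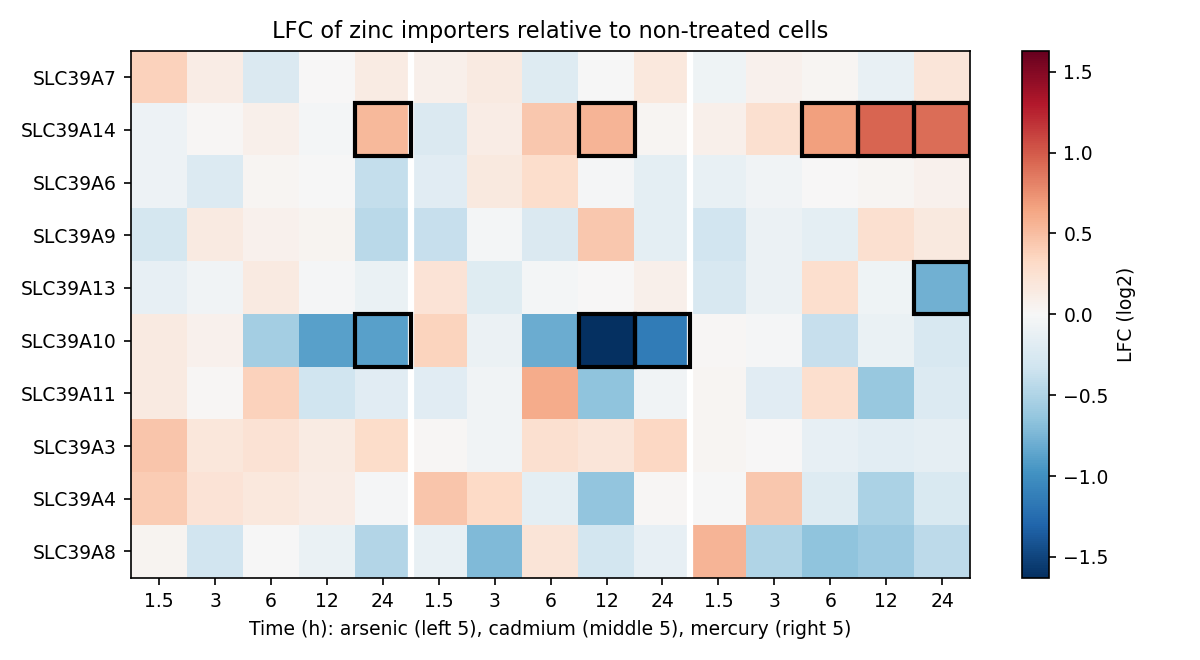
LFC of the 10 importers (rows, in order of their non-treated level) relative to non-treated cells of the same time, for 5 times (h) of each metal. Red is higher and blue is lower on the log2 scale of the bar, and black frames mark the 9 calls, which lie in the rows of SLC39A14, SLC39A13, and SLC39A10.

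SLC39A10 lies on the plus strand at chr2:195575977-195737702 (GRCh38). Its level at 12 h was 20.1, 18.5, and 17.5 CPM in the 3 non-treated libraries and 5.44, 4.22, and 8.43 CPM with cadmium. All cadmium libraries were thus below all non-treated ones, and below every one of the 15 non-treated libraries of the series, the lowest of which had 13.0 CPM. The LFC was -1.63 (95% interval -2.27 to -0.98, adjusted p = 0.000249 by edgeR), where 2.99% of all genes were called lower. The counts behind the cadmium values were 12, 13, and 24 reads.

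At 24 h of cadmium, SLC39A10 had 12.3, 10.3, and 10.4 CPM, against 18.0, 24.0, and 31.7 CPM in non-treated cells. The groups again did not overlap, although the non-treated libraries themselves ranged widely. The LFC was -1.14 (95% interval -1.697 to -0.591, adjusted p = 0.00965 by edgeR), a fall called in 0.632% of all genes. The call was lost without the third non-treated library (LFC -0.90, adjusted p = 0.12), without the second cadmium library (LFC -1.09, adjusted p = 0.0584), and in a fit of only the 6 libraries compared (adjusted p = 0.0779). It was kept without the third cadmium library (LFC -1.10, adjusted p = 0.0404).

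With arsenic, SLC39A10 had 7.36, 16.2, and 15.9 CPM at 24 h, the first library standing below the other 2 and all 3 below the non-treated cells of 24 h. For this gene, the non-treated mean was highest at 24 h (24.6 CPM), against 17.4 to 20.4 CPM at the other times. The arsenic values of 16.2 and 15.9 CPM lay within the range of the 15 non-treated libraries of the series (13.0 to 31.7 CPM). Only the library with 7.36 CPM lay below that range. The LFC was -0.88 (95% interval -1.43 to -0.34, adjusted p = 0.019 by edgeR), a fall called in 7.75% of all genes. It was lost without the first arsenic library (LFC -0.61, adjusted p = 0.183) or without the third non-treated library (LFC -0.64, adjusted p = 0.149). At 12 h of arsenic, the values were 10.9, 8.05, and 11.3 CPM, with an LFC of the same size (-0.89) and an adjusted p of 0.0616 by edgeR. All 3 lay below the 3 non-treated libraries of 12 h, but the difference did not pass the threshold. It passed with DESeq2 (adjusted p = 0.0398), with no filter on low counts (adjusted p = 0.0374), and in a fit of only these 6 libraries (adjusted p = 0.0386).

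At 6 h, SLC39A10 had 12.8, 12.9, and 4.27 CPM with cadmium and 13.2, 10.4, and 12.5 CPM with arsenic, against 13.1, 15.4, and 23.8 CPM in non-treated cells, and neither difference passed the test (LFC -0.81, adjusted p = 0.181 for cadmium and LFC -0.55, adjusted p = 0.565 for arsenic, both by edgeR). Without the first cadmium library, that of the low mitochondrial share, the cadmium value was -1.055 (adjusted p = 0.126). Mercury gave LFC values between -0.37 at 6 h and 0.02 at 1.5 h. At 12 h of mercury the libraries had 22.5, 13.3, and 17.0 CPM and overlapped the non-treated ones (LFC -0.11, 95% interval -0.65 to 0.44). At 1.5 and 3 h, the LFC of SLC39A10 was between -0.10 and 0.36 with the 3 metals, and no difference was called.

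The sequence around a start site of SLC39A10 is shown because metal response elements are the sites through which MTF1 acts, and SLC39A10 and SLC39A13 are the called members for which RefSeq (GRCh38.p14) start windows, 250 bases before to 50 bases after a start, were matched. Capitals mark the core letters of a metal response element, searched as TGCACNC or TGCGCNC on both strands, and both windows below lie on the plus strand.
SLC39A10, chr2:195656976-195657275: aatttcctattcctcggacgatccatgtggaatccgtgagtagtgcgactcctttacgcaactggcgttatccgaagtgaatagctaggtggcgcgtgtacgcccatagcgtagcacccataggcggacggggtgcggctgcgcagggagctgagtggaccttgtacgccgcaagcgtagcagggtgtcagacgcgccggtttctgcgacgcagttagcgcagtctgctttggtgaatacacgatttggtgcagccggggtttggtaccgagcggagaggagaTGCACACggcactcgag
SLC39A13, chr11:47408340-47408639: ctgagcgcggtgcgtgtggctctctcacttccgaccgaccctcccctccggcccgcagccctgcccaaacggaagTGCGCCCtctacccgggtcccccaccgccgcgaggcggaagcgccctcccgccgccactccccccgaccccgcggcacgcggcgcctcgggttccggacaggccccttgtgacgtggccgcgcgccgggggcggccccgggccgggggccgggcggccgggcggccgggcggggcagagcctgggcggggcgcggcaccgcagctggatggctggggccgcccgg
The core of SLC39A10 begins 33 bases after the start site, and that of SLC39A13 begins 175 bases before it.

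Each of these genes has a second start window without the core. In all, 13 windows of 8 members were matched, and 5 windows (38.5%), of SLC39A3, SLC39A6, SLC39A8, SLC39A10, and SLC39A13, held the core once, against 29.6% of 35116 windows of all genes. SLC39A7, SLC39A9, and SLC39A11 had no such letters in their windows. The letters TGACNNNGC, of antioxidant response elements, were in 3 windows (SLC39A7, SLC39A9, and SLC39A13) and in 13.3% of all windows, and TGATGNAA, of ATF4 sites, was in 1 (SLC39A11) and in 3.62% of all windows. None of the matches of different motifs overlapped, and a match describes the letters alone.

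**Figure D3:**
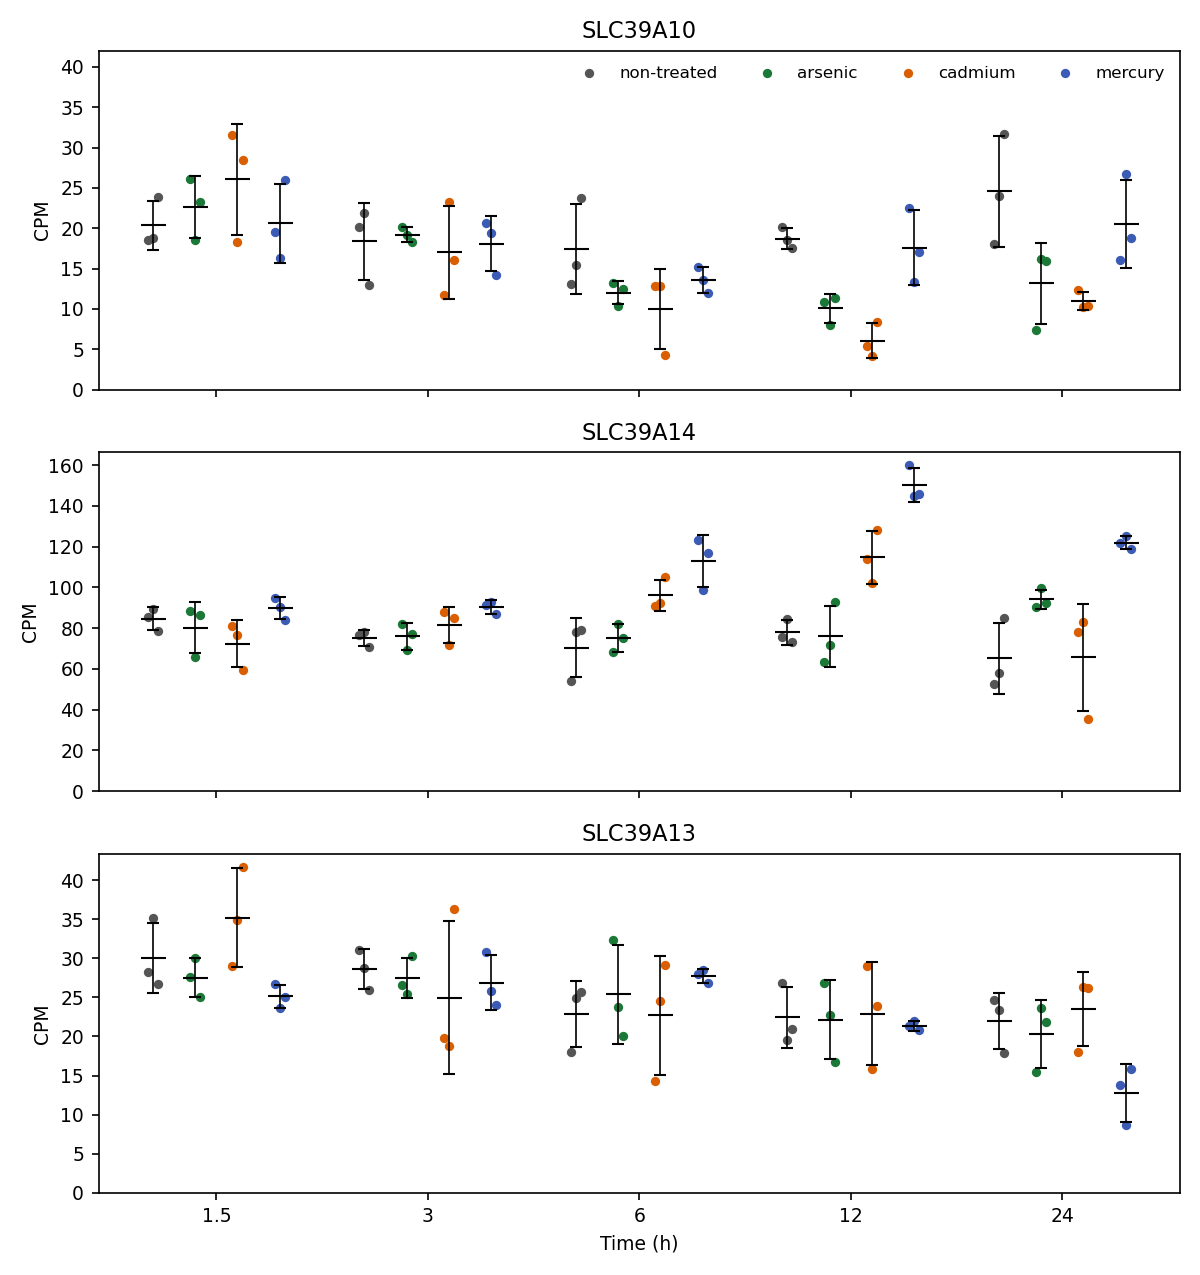
Levels in CPM of the 3 called members in every library, by time (h) and treatment. Points are libraries, and the black marks give the mean and SD of 3 libraries. SLC39A10 was lowest after 12 h of cadmium (mean 6.03 CPM), SLC39A14 highest after 12 h of mercury (mean 150 CPM), and SLC39A13 lowest after 24 h of mercury (mean 12.8 CPM).

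SLC39A14 (chr8:22367278-22434129, plus strand) rose most with mercury. At 12 h its level was 160, 145, and 146 CPM with mercury and 75.8, 84.6, and 73.3 CPM in non-treated cells. Every mercury library at 12 h was higher than each of the 15 non-treated libraries of the series, of which the highest had 89.6 CPM. The LFC was 0.95 (95% interval 0.64 to 1.26, adjusted p = 3.23e-06 by edgeR), where 8.89% of all genes were called higher.

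At 24 h of mercury, SLC39A14 had 122, 125, and 119 CPM, against 52.8, 57.8, and 85.1 CPM in non-treated cells, the third of which stood above the other 2. The LFC was 0.91 (adjusted p = 5.96e-06 by edgeR), with 13.9% of all genes called higher. The calls at 12 and 24 h of mercury held in each fit without 1 of their 6 libraries. Already at 6 h the mercury libraries had 123, 98.7, and 117 CPM, above the 53.9, 78.2, and 79.3 CPM of non-treated cells. The LFC was 0.67 (adjusted p = 0.00271 by edgeR, 4.49% of all genes called higher), and 0.53 (adjusted p = 0.0632) without the first non-treated library, the lowest of its group. At 3 h the LFC was 0.27 and did not pass the test (adjusted p = 0.73 by edgeR).

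With cadmium, SLC39A14 was highest at 12 h, with 114, 102, and 128 CPM. The LFC was 0.56 (95% interval 0.24 to 0.87, adjusted p = 0.0164 by edgeR, 5.19% of all genes called higher). Left out singly, the third cadmium library gave 0.46 (adjusted p = 0.132), the first non-treated library 0.54 (adjusted p = 0.0696), and the third non-treated library 0.51 (adjusted p = 0.0732). At 6 h of cadmium, the libraries had 90.9, 92.5, and 105 CPM and lay above the non-treated ones, with an LFC of 0.44 that did not pass the test (adjusted p = 0.179 by edgeR).

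At 24 h of cadmium, SLC39A14 had 78.2, 83.0, and 35.6 CPM. The third library, which also correlated least with its replicates over all genes, was below every other library of the series for this gene. The LFC was 0.03 (95% interval -0.29 to 0.36) with it and 0.31 (adjusted p = 0.358 by edgeR) without it. In the same library SLC39A8 was lowest of its group (1.44 CPM, against 7.27 and 5.44), as was SLC39A6 (30.9 CPM, against 50.7 and 43.5), whereas SLC39A7 was highest (153 CPM, against 123 and 122).

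With arsenic, SLC39A14 differed from non-treated cells only at 24 h among the 5 times, where its level was 90.6, 99.6, and 92.2 CPM. The LFC was 0.53 (95% interval 0.21 to 0.85, adjusted p = 0.0159 by edgeR, 6.54% of all genes called higher). It was lost without the second arsenic library (LFC 0.49, adjusted p = 0.0715), without the first non-treated library (LFC 0.40, adjusted p = 0.165), and without the second (LFC 0.46, adjusted p = 0.0972). At the earlier times of arsenic the LFC was between -0.08 and 0.09, and its libraries overlapped the non-treated ones.

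**Figure D4:**
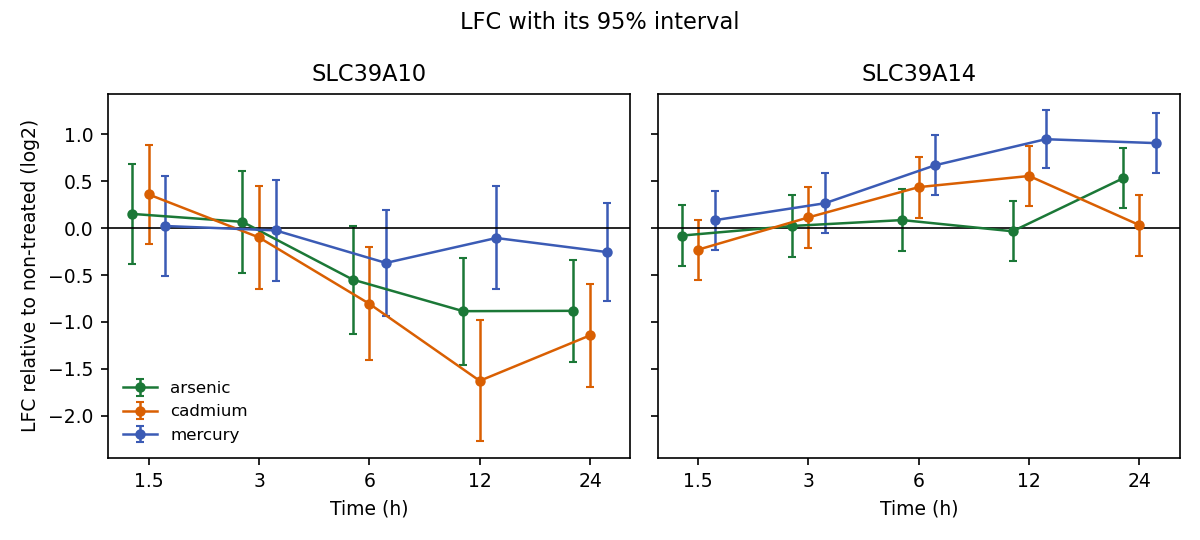
LFC (log2) of SLC39A10 and SLC39A14 relative to non-treated cells of the same time, with the 95% interval, by time (h) and metal. SLC39A10 reached -1.63 with cadmium at 12 h, and its intervals with mercury included 0 at all 5 times, whereas SLC39A14 reached 0.95 with mercury at 12 h.

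SLC39A13 (chr11:47407132-47416496, plus strand) was called once. After 24 h of mercury it had 13.8, 8.68, and 15.9 CPM, against 24.7, 23.4, and 17.9 CPM in non-treated cells. The groups did not overlap, but the highest mercury library and the lowest non-treated one lay close together. The LFC was -0.79 (95% interval -1.28 to -0.30, adjusted p = 0.0113 by edgeR), a fall called in 13.9% of all genes. Without the second mercury library it was -0.56 (adjusted p = 0.132), and without the first non-treated library -0.68 (adjusted p = 0.0672). In the other 14 comparisons the LFC of SLC39A13 was between -0.26 and 0.27.

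The other surface importers, SLC39A3, SLC39A4, SLC39A6, and SLC39A8, had no call against non-treated cells. SLC39A6 had 35.5, 33.3, and 39.8 CPM after 24 h of arsenic and 47.6, 47.3, and 46.7 CPM in non-treated cells. The groups did not overlap, yet the LFC of -0.39 missed the threshold (adjusted p = 0.0873 by edgeR). SLC39A8 ranged from a mean of 2.27 CPM after 6 h of mercury to 7.02 CPM after 1.5 h, with a median of 15.5 counts per library. At this depth its 95% intervals reached a median of 0.82 to either side of the LFC, and those of SLC39A4 0.72. Differences of that size, and also larger ones after adjustment over all genes, could go uncalled. SLC39A3 had LFC values between -0.17 and 0.45, and none of its 15 unadjusted p-values was under 0.05. The same was true of SLC39A4, whose lowest mean, 5.01 CPM, was at 12 h of cadmium (LFC -0.64).

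Of the importers on inner membranes, SLC39A7 was the steadiest and the most precisely measured, with LFC values between -0.24 and 0.37 and 95% intervals that reached a median of 0.27 to either side. Its group means ranged from 103 CPM at 12 h of mercury to 143 CPM at 1.5 h of arsenic, where the libraries had 170, 138, and 122 CPM against 113, 110, and 108 CPM in non-treated cells (adjusted p = 0.284 by edgeR). SLC39A11, placed in the nucleus and Golgi apparatus, had 9.53, 9.74, and 9.83 CPM after 12 h of cadmium and 14.3, 16.4, and 15.5 CPM in non-treated cells. This difference did not overlap between the groups and missed the threshold (LFC -0.66, adjusted p = 0.0963 by edgeR), as did that after 12 h of mercury (LFC -0.62, adjusted p = 0.0807). At 6 h of cadmium, the LFC of SLC39A11 had the opposite sign and also missed the threshold (0.61, adjusted p = 0.232), with 12.2, 21.1, and 20.3 CPM against 8.57, 12.1, and 13.8 CPM, and it was 0.83 (adjusted p = 0.0903) without the first cadmium library. SLC39A9 had an LFC of -0.44 after 24 h of arsenic (adjusted p = 0.0919 by edgeR) and of 0.44 after 12 h of cadmium (adjusted p = 0.139).

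To see where the metals differed from each other, their libraries at the same time were compared directly, without the non-treated cells. Of 150 tests of a member, 10 were called (6.67%), in 5 members, against 4.86% over all genes. Between arsenic and cadmium, 0 of 10 members were called at 1.5 h (0% of all genes), 3 h (0.138%), and 6 h (1.18%), and 1 each at 12 h (5.77%) and 24 h (10.2%). Between arsenic and mercury, 0 were called at 1.5 h (1.56% of all genes) and 3 h (1.89%), 1 each at 6 h (4.48%) and 12 h (6.84%), and 2 at 24 h (11.4%). Between cadmium and mercury, 0 were called at 1.5 h (0.656% of all genes), 3 h (1.78%), and 6 h (3.78%), 1 at 12 h (3.29%), and 3 at 24 h (20%). In the 8 comparisons of metals without a member called by edgeR, 6 of 80 tests had an unadjusted p under 0.05, and DESeq2 called 0 and gave no adjusted p in 15. Among them, SLC39A7 was higher with arsenic than with mercury at 1.5 h (LFC 0.44, adjusted p = 0.0764 by edgeR). It passed in edgeR with no filter on low counts (adjusted p = 0.0246) and without the third arsenic library (adjusted p = 0.0209).

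Cadmium and mercury differed in SLC39A10 at 12 h, where the cadmium libraries (4.22 to 8.43 CPM) lay below the mercury libraries (13.3 to 22.5 CPM), with an LFC of -1.52 (adjusted p = 0.00195 by edgeR). The difference at 24 h was -0.89 (adjusted p = 0.0176), and it was lost without the second cadmium library (adjusted p = 0.0556), the third cadmium library (0.0591), or the second mercury library (0.161). Arsenic and cadmium were not called different in this gene at 12 h (LFC 0.74, 95% interval 0.05 to 1.43, adjusted p = 0.227), nor arsenic and mercury (LFC -0.78, adjusted p = 0.0924). At 24 h too, arsenic (mean 13.2 CPM) was not called different in this gene from cadmium (mean 11 CPM) or mercury (mean 20.5 CPM).

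In SLC39A14, mercury was above arsenic at 12 h (LFC of arsenic relative to mercury -0.98, adjusted p = 4.43e-06 by edgeR) and above cadmium at 24 h (LFC of cadmium relative to mercury -0.88, adjusted p = 2.14e-05). The first of these held in each fit without 1 of its libraries, and so did the second, which was -0.60 without the third cadmium library. At 6 h, arsenic lay below mercury by an LFC of -0.59 (adjusted p = 0.015), lost without the first or the third arsenic or the first mercury library (adjusted p 0.0525 to 0.1). At 12 h of cadmium and mercury the difference was -0.39 and did not pass the test (adjusted p = 0.185), although it did in a fit of only the 6 libraries compared (adjusted p = 0.0134). The difference of arsenic from mercury at 24 h was -0.38 (adjusted p = 0.109), and it passed in the fit of only its 6 libraries (adjusted p = 0.017) and when the third cadmium library of 24 h, which enters only the shared estimate of the spread, was left out (adjusted p = 0.0432).

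Arsenic and cadmium differed in SLC39A14 in opposite ways at the last 2 times. At 12 h arsenic was below cadmium (LFC -0.59, adjusted p = 0.0128 by edgeR), a call lost without the first or second arsenic or the third cadmium library (adjusted p 0.0734 to 0.15). At 24 h arsenic was above cadmium (LFC 0.50, adjusted p = 0.0317), but without the third cadmium library the LFC was 0.22 (adjusted p = 0.45), and the call was also lost without any single arsenic library (adjusted p 0.0565 to 0.121) and with only the 6 libraries compared (adjusted p = 0.192).

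The other calls between metals were at 24 h. SLC39A13 was higher with cadmium than with mercury (LFC 0.87, adjusted p = 0.00703 by edgeR), with 18.0, 26.3, and 26.2 CPM against 13.8, 8.68, and 15.9 CPM, and was not called without the second mercury library (LFC 0.64, adjusted p = 0.101). Arsenic against mercury missed the threshold in this gene (LFC 0.68, adjusted p = 0.0655). That difference passed without the first arsenic library (adjusted p = 0.0408) or the third mercury library (adjusted p = 0.0419). SLC39A9 was lower with arsenic (21.7, 30.4, and 23.6 CPM) than with mercury (43.1, 34.7, and 37.0 CPM), with an LFC of -0.60 (adjusted p = 0.0199). SLC39A6 was lower with arsenic than with mercury (44.4, 56.1, and 48.9 CPM) by an LFC of -0.46 (adjusted p = 0.0414). Both of these calls were lost when certain single libraries were left out. SLC39A9 was not called without the first or the third arsenic or the first mercury library (adjusted p 0.0713 to 0.12). SLC39A6 was not called without the first or second arsenic or the second or the third mercury library (adjusted p 0.0763 to 0.203). The SLC39A6 call was also lost with no filter on low counts and in a fit of only the libraries compared (adjusted p up to 0.083).

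In culture without a metal, 0 of 10 members were called relative to 1.5 h, whether at 3 h (0.122% of all genes), 6 h (0.486%), 12 h (4.09%), or 24 h (3.29%), by edgeR and by DESeq2. Of these 40 tests, 3 had an unadjusted p under 0.05, and DESeq2 gave no adjusted p in 10. For SLC39A14, the LFC at 24 h was -0.38 (adjusted p = 0.205 by edgeR), and without the third non-treated library of 24 h it was -0.63 (adjusted p = 0.0245). Whether a metal's effect differed between 24 h and 12 h was tested as a term of its own. It was called in 0 of 10 members with arsenic (1.57% of all genes), cadmium (0.381%), and mercury (0.624%), while 4 of 30 tests had an unadjusted p under 0.05, and DESeq2 called 0 and gave no adjusted p in 11. For SLC39A14 this term was 0.56 with arsenic (adjusted p = 0.216) and -0.52 with cadmium (adjusted p = 0.391). The arsenic term was 0.82 (adjusted p = 0.0374) without the third non-treated library of 24 h. The cadmium term was -0.25 (adjusted p = 0.784) without the third cadmium library of 24 h and -0.27 (adjusted p = 0.815) without that same non-treated library.

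The sum of the 10 members changed little next to its parts. Its group means ran from 331 CPM at 12 h of arsenic to 416 CPM at 24 h of mercury, and those of non-treated cells from 343 to 369 CPM. With mercury the libraries lay higher late, at 387 to 416.6 CPM at 12 h and 404.4 to 435.4 CPM at 24 h. Non-treated libraries lay at 304.6 to 365.2 CPM and 313.2 to 379.1 CPM at those times, and the sum was not tested. SLC39A14 made up 18.2% to 23.0% of the sum in the non-treated groups. At 12 h it made up 31.2% ± 1.38 (SD, n = 3) with cadmium and 37.7% ± 0.52 (SD, n = 3) with mercury. SLC39A7 made up 30.4% and 25.8% in those groups. SLC39A10 made up 4.96% to 6.84% in the non-treated groups and 1.62% ± 0.418 (SD, n = 3) at 12 h of cadmium. The level of SLC39A14 over that of SLC39A10 in the same library was between 2.41 and 5.45 in the 15 non-treated libraries. At 12 h it was 15.2 to 24.1 with cadmium, 7.09 to 11 with mercury, and 5.79 to 8.93 with arsenic, against 3.76 to 4.57 in non-treated cells. These ratios were not tested, and the genes were singled out by the calls above.

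**Figure D5:**
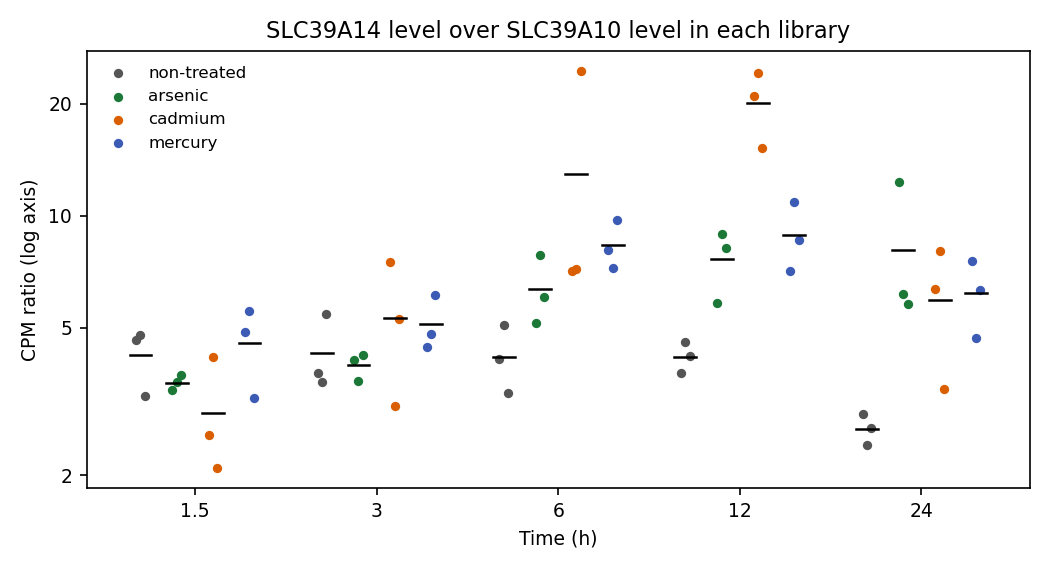
Level of SLC39A14 divided by that of SLC39A10 in each library (log axis), by time (h) and treatment. Points are libraries and lines are means of 3, and the 12 h cadmium libraries (mean 20.1) lie above the non-treated ones (mean 4.17).

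Zinc exporters, metallothioneins, and MTF1 were set beside the importers as a list of 23 genes, of which 11 were tested. These 11 include MT1B, which passed the filter on low counts only through treated groups. None of these was called lower in any of the 15 comparisons. In order of time, the number called higher with arsenic was 0, 2, 3, 3, and 4, where 0.0648%, 0.122%, 0.608%, 2.37%, and 6.54% of all genes were called higher. With cadmium it was 0, 4, 5, 5, and 5, against 0%, 0.203%, 1.6%, 5.19%, and 1.56% of all genes, and with mercury 3, 3, 4, 5, and 7, against 0.478%, 1.39%, 4.49%, 8.89%, and 13.9%. The median LFC of the list over the 5 times was between 0.0535 and 0.354 with arsenic, 0 and 0.506 with cadmium, and 0.132 and 0.618 with mercury, whereas that of all genes tested stayed between -0.0211 and 0.0133.

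At 12 h of cadmium, where SLC39A10 was lowest, the metallothionein genes MT1X (LFC 5.34), MT1E (LFC 4.76), and MT2A (LFC 2.66) were called higher, as was the zinc exporter SLC30A1 (LFC 2.46), which at both times of cadmium is named after its values were seen. MT1B rose from 0 counts in each non-treated library to 9 to 16 counts, at least 5.58-fold against a floor of 3 counts per library. With 0 counts in non-treated cells, it could pass the filter on low counts only through treated groups in which it was high. Its rise is therefore no separate support, although it is among the list genes counted as called higher at 12 and 24 h of cadmium. At 24 h of cadmium the LFC was 5.17 for MT1X, 4.53 for MT1E, 3.71 for MT2A, and 1.82 for SLC30A1, and the rise of MT1B was at least 7.76-fold. After 12 h of mercury, where SLC39A14 was highest, MT1X (LFC 1.45), MT1E (LFC 1.10), and the exporters SLC30A1 (LFC 0.94) and SLC30A7 (LFC 0.80) were called higher. At 24 h of mercury SLC30A1 (LFC 1.17), MT1E (LFC 1.02), MTF1 (LFC 0.82), and MT2A (LFC 0.74) were. With arsenic, MT1E (LFC 1.595 at 12 h and 2.06 at 24 h), MT1X (1.88 and 1.69), and SLC30A1 (1.14 and 1.07) were called at both times, and MT2A was called at 24 h (LFC 1.69).

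Of 25 genes listed under the transport of iron, copper, magnesium, manganese, and other divalent metals, 19 were tested. With arsenic, 1 was called higher at 12 h and 4 at 24 h, with cadmium 2 at 12 h and 0 at 24 h, and with mercury 2, 4, and 8 at 6, 12, and 24 h. These counts stand against the shares of all genes called higher given for the list before. At 1.5 and 3 h none was called with any metal, and the median LFC of the list was between -0.0562 and 0.52 in the 15 comparisons. The copper importer SLC31A1 was called higher at 12 h with each metal (LFC 0.62 for arsenic, 0.45 for cadmium, and 0.88 for mercury) and at 24 h of arsenic (LFC 0.47) and mercury (LFC 0.63). SLC25A37, which brings iron into mitochondria, was called at 12 h of cadmium (LFC 0.41) and at 6, 12, and 24 h of mercury (LFC 0.53, 0.49, and 0.66). CNNM4, a magnesium transporter, was higher at 24 h with arsenic (LFC 1.51) and at 6, 12, and 24 h with mercury (LFC 1.49, 1.16, and 2.36). TRPM7, a channel for magnesium and zinc (LFC 1.003), and the magnesium transporter SLC41A1 (LFC 0.78) were higher at 24 h of mercury, MAGT1, linked to magnesium uptake, was higher at 12 h of mercury (LFC 0.52), and TMEM165, a manganese transporter of the Golgi apparatus (LFC 0.60 and 0.53), and CNNM3 (LFC 0.59 and 0.62) were higher at 24 h of both arsenic and mercury. ATP13A1 was the single gene of this list called lower, at 24 h of mercury (LFC -0.59, adjusted p = 0.0145 by edgeR), against 13.9% of all genes called lower. Its place in the list does not show that it carries a metal, which was not examined here. ATP13A1, the values at 6 h, and those of SLC31A1, TMEM165, and CNNM3 at 24 h of mercury are given after they were seen.

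Over the 20 group means of log2 CPM, the genes most like SLC39A10 among the 7253 genes that averaged 50 counts or more were NEDD1 (r = 0.845), COG1 (r = 0.784), and DHX38 (r = 0.763). Those most like SLC39A14 were MAP2K1 (r = 0.917), ZFAND3 (r = 0.914), and IL18 (r = 0.908). Among the importers themselves, the lowest correlation was that of SLC39A4 with SLC39A14 (r = -0.573) and the highest that of SLC39A3 with SLC39A4 (r = 0.542). The points are group means of 3 libraries each that share 5 times and 4 treatments, and these values are a description.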

How the data were processed

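RNA of 60 libraries of 1321N1 cells was sequenced from the 3′ end. Per the submitters' processing notes and the study's methods, the authors aligned reads to GRCh38 with STAR 2.7.9a and counted them on GENCODE exons with GenomicAlignments in Union mode, on the matching strand. The deposited counts are whole numbers without normalization. Library totals were 2215276 to 4404609. The 92 spike-in rows, which had 0 counts, stayed out of all fits.

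Counts were fitted here in edgeR 4.0.16 (R 4.3.3) with 1 coefficient for each of 20 groups, TMM factors (0.934 to 1.03), and filterByExpr (minimum count 10, minimum total 15), which kept 12341 of 62703 genes. The common biological coefficient of variation was 0.12. Standard errors and 95% intervals follow from the quasi-likelihood F statistic. GENCODE 44 gave the positions of genes and RefSeq the start windows.

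All members were named, with up to 4 called genes of each other list at 12 and 24 h, and 3 most similar genes for each member with at least 3 calls. The members and lists were chosen with earlier results of these data known. Alternatives were RLE factors, DESeq2 1.42.0, no filter or a stricter filter (20 counts in 3 libraries), a replicate block, only the libraries compared, an added LFC threshold of 1, and leaving out each library. Replicates differed by more than counting noise (chi-square of at least 2 per degree of freedom in each pair), so no library was a copy. The genetic screens were not analysed here.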

Additional observations from a re-analysis of the deposited data

How the results depend on the processing

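Of the 9 calls against non-treated cells, 3 held under every alternative fit and every left-out library (SLC39A10 at 12 h of cadmium and SLC39A14 at 12 and 24 h of mercury), as did 3 of the 10 calls between metals. No called value changed sign. Summed over the calls against non-treated cells, 41 of 54 fits without 1 library and 53 of 54 other fits kept the call, and between metals 39 of 60 and 57 of 60 did. Without single libraries, the number of calls ranged from 0 to 1 higher and 0 to 2 lower with arsenic, 0 to 1 higher and 1 to 2 lower with cadmium, 2 to 3 higher and 0 to 1 lower with mercury, 1 to 2 for arsenic against cadmium, 3 to 5 for arsenic against mercury, 2 to 4 for cadmium against mercury, 0 to 1 over time in non-treated cells, and 0 to 1 between the 24 and 12 h effects. With an LFC beyond 1 also required, 2 calls were left lower with cadmium, those of SLC39A10 at 12 and 24 h. Under the same rule 0 calls were left higher with arsenic, cadmium, or mercury, and 0 lower with arsenic or mercury. Between metals, 0 were left for arsenic against either other metal and 1 for cadmium against mercury. Calls lower with arsenic rose from 1 to 2 with no filter, with DESeq2, and with only the libraries compared. In that last fit, calls lower with cadmium fell from 2 to 1, and those between arsenic and cadmium from 2 to 1. Same-numbered libraries did not deviate together (45 pairs, highest correlation 0.0837), and a replicate block left the counts of calls as they were, with 3 higher and 1 lower with mercury and 2 lower with cadmium. RLE or DESeq2 factors moved the median LFC of all genes by at most 0.0161. Counts of 12 to 24 reads limit the SLC39A10 values at 12 h of cadmium, and 15.5 reads per library those of SLC39A8.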
